A study of Mus musculus with 8 samples.

Results

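Genes of the T cell receptor complex, its coreceptors and the cytotoxic granule were examined in mouse colon, in 10 genes listed by name: Cd3e, Cd3d, Cd3g, Cd4, Cd8a, Cd8b1, Nkg7, Gzma, Gzmb and Itgae. Of these, 9 matched a probe set through its RefSeq transcript accession, with 1 probe set each, out of 14351 genes named in the value table. Cd8a matched none and was not analysed here. The groups were 3 arrays titled WT, from wild type females, and 3 titled STAT5b-/-, from 2 females and, in replicate 1, a male; STAT5b is a transcription factor that carries cytokine signals to the nucleus. A further wild type female sample titled REF was deposited as 2 columns that differed by at most 2.47e-07 of their value and was counted as 1 sample. All mice were adult; strain, exact age, how the mutation was made and any treatment are not stated in the labels. Apart from the male, which must be a different mouse from the 2 females, the labels do not say that replicates were separate mice. Each p-value therefore reflects spread among arrays that may in part be technical. Whether lymphoid follicles or the muscle layer were kept in the tissue is not stated either.

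The CD3 chains (Cd3e, Cd3d, Cd3g) carry signals from the T cell receptor into the cell, and T cells cannot display the receptor without them. CD4 and CD8 are coreceptors that bind MHC class II and class I and mark helper and cytotoxic T cells. Granzymes A and B are serine proteases that cytotoxic T cells and natural killer cells release from granules, and Nkg7 is a membrane protein of those granules. In the gut many such cells sit between epithelial cells as intraepithelial lymphocytes, held there by the integrin CD103 (Itgae), which pairs with the beta 7 chain and binds E-cadherin.

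The deposited values are linear and divided by the average of the WT arrays, so WT has a mean of 1 for every gene. Levels of different genes therefore cannot be compared, and whether colon or lymphocyte markers were bright or dim could not be checked. Array medians over 26180 probe sets lay between 0.948 and 1.04, and the SD of log2 ratios was 0.289 to 0.363 in WT, 0.402 in REF and 0.646 to 0.737 in STAT5b-deficient arrays. Stat5b itself, the targeted gene, was not measured lower: its ratios were 1.16, 1.17 and 1.26 in STAT5b-deficient arrays and 0.930 to 1.08 in WT (limma adjusted p = 0.175). Where its probes lie relative to the mutation is not stated, so this checks neither the labels nor the loss of the protein. Arrays are called STAT5b-deficient here because they are labelled so, and every direction rests on those labels.

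The sequences upstream of the 5 genes that rose are shown so that the regulatory DNA of the CD3 chains and of the granule genes can be read beside their values. RefSeq promoter windows of GRCm38.p6, which run from 250 bases before a gene's start to 50 after it, were held for 7 of the 10 genes (not for Cd4, Cd8b1 and Itgae). Only bases upstream of the annotated gene are printed, 5′ to 3′ on the gene's strand, with capitals on matches to 5 motifs searched on both strands. They were TTCNNNGAA, the palindrome bound by STAT dimers, then TGTGGT for RUNX factors, CAGGAAG for ETS factors, CAGCTG for E-box factors, and the TATA box, searched as TATAAA and its complement. The STAT and ETS letters can overlap, but no matches found here did.
Cd3d, chr9:44981536-44981768, + strand: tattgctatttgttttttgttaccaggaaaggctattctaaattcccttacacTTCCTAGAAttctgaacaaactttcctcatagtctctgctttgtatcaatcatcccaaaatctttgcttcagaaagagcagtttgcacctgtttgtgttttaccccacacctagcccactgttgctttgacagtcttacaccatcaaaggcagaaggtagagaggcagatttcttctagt
Cd3g, chr9:44980432-44980681, - strand: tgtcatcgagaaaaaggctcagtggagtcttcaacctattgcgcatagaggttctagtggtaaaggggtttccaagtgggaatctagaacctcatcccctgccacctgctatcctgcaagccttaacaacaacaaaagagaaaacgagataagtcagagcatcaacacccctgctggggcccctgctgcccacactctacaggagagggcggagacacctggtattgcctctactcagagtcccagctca
Cd3e, chr9:45009664-45009861, - strand: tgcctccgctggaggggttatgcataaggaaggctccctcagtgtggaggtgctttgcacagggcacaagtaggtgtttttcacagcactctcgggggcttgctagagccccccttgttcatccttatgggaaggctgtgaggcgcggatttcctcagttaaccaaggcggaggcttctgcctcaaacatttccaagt
Nkg7, chr7:43436888-43437137, + strand: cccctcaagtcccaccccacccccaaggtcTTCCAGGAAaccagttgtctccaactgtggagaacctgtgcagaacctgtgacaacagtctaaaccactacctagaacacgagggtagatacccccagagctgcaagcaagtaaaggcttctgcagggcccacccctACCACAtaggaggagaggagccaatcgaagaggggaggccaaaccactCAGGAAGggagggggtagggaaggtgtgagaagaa
Gzma, chr13:113100982-113101231, - strand: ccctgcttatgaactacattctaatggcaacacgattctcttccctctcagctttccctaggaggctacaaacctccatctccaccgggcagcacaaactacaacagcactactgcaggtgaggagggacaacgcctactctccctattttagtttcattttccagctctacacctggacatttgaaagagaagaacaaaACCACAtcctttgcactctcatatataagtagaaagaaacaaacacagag

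Cd3d and Cd3g are divergent neighbours whose starts lie 1355 bases apart. The STAT letters were found in 3 of the 7 windows, against 8.30% of all 32851 windows of this length: once upstream in Cd3d as TTCCTAGAA, once upstream in Nkg7 as TTCCAGGAA, and once after the start in Gzmb. RUNX letters occurred in 3 windows (Nkg7, Gzma and Gzmb; 16.8% of all windows), ETS letters in 2 (Nkg7, and Cd3e outside the bases printed; 13.3%), the E-box in 2 (Cd8a and Cd3g, in Cd3g after the start; 16.3%) and the TATA letters in 0 (13.6%). A match describes letters in the window, and no binding was measured.

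STAT5b-deficient colon was then compared with WT, the question of the series. All 3 measured CD3 chains rose, by 1.73 to 2.03 times, Nkg7 rose 2.72-fold and Gzma 7.06-fold, while neither coreceptor measured, nor Gzmb, nor Itgae passed the test. Thus 5 of 9 passed upwards and 0 downwards (limma, adjusted p under 0.05 over all 14351 genes), where 21.7% of all genes passed, 13.3% upwards and 8.42% downwards. The same 5 were the genes whose groups did not overlap, beside 25.0% of all genes that were apart and higher and 16.5% apart and lower. The log2 fold change was above 0 in 8 of 9, and in 50.6% of all genes. The median log2 fold change was 0.85 for the 9 genes and 0.01 for all genes. In tissue RNA, fewer cells of a type and less RNA per cell, or more of either, cannot be told apart.

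**Figure D1:**
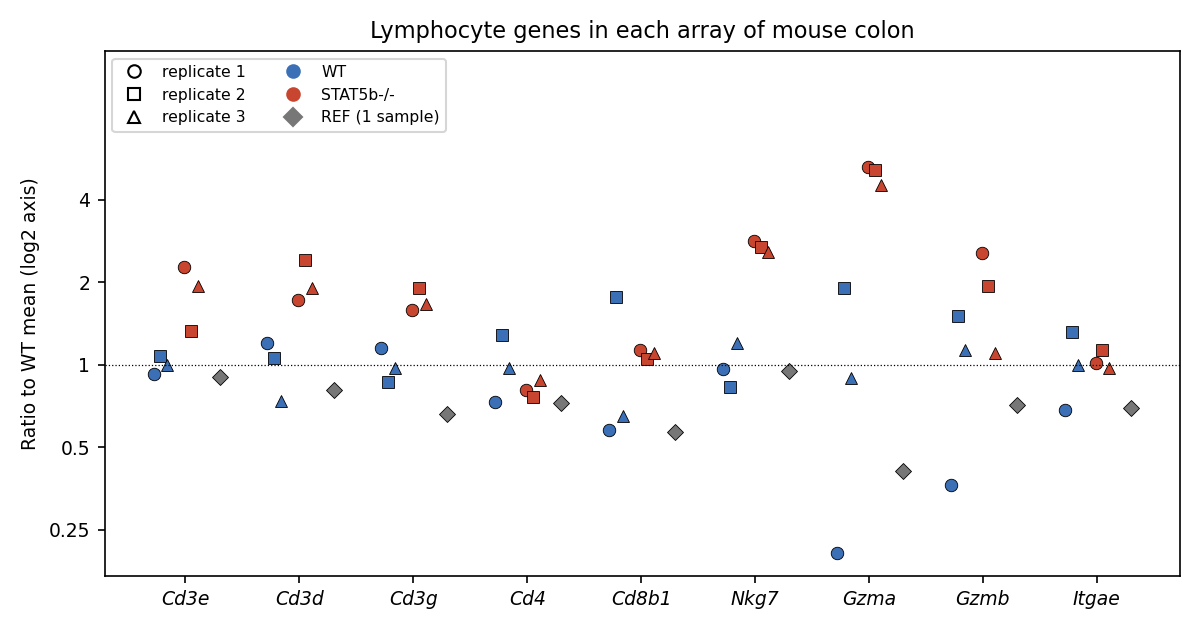
Ratio to the WT mean (log2 axis) of the 9 measured genes in each array, with blue for WT, red for STAT5b-/- and grey for REF, and the marker shape giving the replicate. The red points lie above all blue points for Cd3e, Cd3d, Cd3g, Nkg7 and Gzma, and REF lies below every red point for all 9 genes.

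Cd3e, a signalling chain of the CD3 complex, had ratios of 0.927, 1.08 and 0.995 in WT and 2.27, 1.33 and 1.94 in STAT5b-deficient replicates 1 to 3. The groups did not overlap, and replicate 2 was the lowest STAT5b-deficient array. On the log2 scale Cd3e rose by 0.85 ± 0.21 (SE; limma adjusted p = 0.0294). In REF the ratio was 0.901.

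Cd3d, the delta chain, had ratios of 1.20, 1.06 and 0.740 in WT and 1.72, 2.42 and 1.90 in STAT5b-deficient arrays. Here replicate 2 was the highest STAT5b-deficient array, the reverse of Cd3e. Cd3d rose by 1.02 ± 0.22 on the log2 scale (limma adjusted p = 0.0188), and REF had a ratio of 0.812.

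Cd3g, the gamma chain, had ratios of 1.16, 0.868 and 0.977 in WT and 1.58, 1.91 and 1.67 in STAT5b-deficient arrays, again with replicate 2 highest. Its log2 fold change was 0.79 ± 0.15 (limma adjusted p = 0.0131). REF, at 0.663, lay below all WT arrays. The order of the arrays in Cd3g followed Cd3d, its genomic neighbour, more closely than Cd3e: over the 7 samples Pearson's r was 0.921 for Cd3d with Cd3g, 0.718 for Cd3d with Cd3e and 0.744 for Cd3g with Cd3e, as a description of samples that share the WT denominator and a difference between groups.

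The calls of the CD3 chains depended on single arrays. Cd3e did not pass without WT replicate 1 (limma adjusted p = 0.0786), WT replicate 3 (0.0802), STAT5b-deficient replicate 1 (0.0882) or replicate 3 (0.103). Cd3d did not pass without STAT5b-deficient replicate 2 (0.0732) or replicate 3 (0.0604), and Cd3g did not pass without replicate 2 (0.0591). Over all 6 fits that each left out an array the log2 fold changes stayed between 0.69 and 1.07 for Cd3e, 0.82 and 1.17 for Cd3d, and 0.69 and 0.90 for Cd3g.

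Cd4, the coreceptor of helper T cells that gut macrophages and innate lymphoid cells can also carry, had ratios of 0.734, 1.29 and 0.977 in WT. In STAT5b-deficient arrays they were 0.808, 0.765 and 0.880, within the WT range. Its log2 fold change, -0.26 ± 0.21, did not pass (limma adjusted p = 0.460), and REF was at 0.727.

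Cd8b1, the beta chain of the CD8 coreceptor, had ratios of 0.576, 1.77 and 0.652 in WT and 1.14, 1.05 and 1.11 in STAT5b-deficient arrays. WT replicate 2 stood above every other array, while the 3 STAT5b-deficient arrays lay close together, between it and the other WT arrays. The log2 fold change of 0.33 ± 0.41 did not pass (limma adjusted p = 0.624). Without WT replicate 2 it was 0.84 ± 0.12 and passed (limma adjusted p = 0.00491), a 1.79-fold difference in place of 1.26-fold; without WT replicate 1 it was 0.03 and without WT replicate 3 it was 0.12. With REF, at 0.569, in place of WT replicate 2, an alternative chosen after seeing the data, the log2 fold change was 0.88 ± 0.10 (limma adjusted p = 0.000984).

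Nkg7 had ratios of 0.966, 0.832 and 1.20 in WT and 2.82, 2.68 and 2.58 in STAT5b-deficient arrays. The 3 STAT5b-deficient arrays lay close together (SD 0.123) and far from every wild type array, REF included at 0.949. Its log2 fold change was 1.45 ± 0.16 (limma adjusted p = 0.00176), which ranked 329 of 14351 genes from the top. Nkg7 passed in each of the 6 fits that left out an array (adjusted p 0.00155 to 0.0136), with log2 fold changes of 1.32 to 1.59, and did not pass after quantile normalization, at 0.90 (adjusted p = 0.160).

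Gzma, granzyme A, a tryptase, had ratios of 0.206, 1.90 and 0.895 in WT and 5.28, 5.14 and 4.53 in STAT5b-deficient arrays. The STAT5b-deficient arrays agreed closely (mean 4.99 ± 0.402, SD, n = 3), while the WT arrays spread widely (SD 0.852). Its log2 fold change of 2.82 ± 0.73 (limma adjusted p = 0.0352) ranked 55 of 14351 from the top. Because the fold is taken from mean log2 ratios, it moved with the WT arrays: 3.82-fold without WT replicate 1 and 11.6-fold without WT replicate 2. The call was lost when WT replicate 3 was dropped (limma adjusted p = 0.0739), and when STAT5b-deficient replicate 1 (0.114), 2 (0.107) or 3 (0.0930) was, although the groups stayed apart in the arrays left. REF, at 0.411, lay between WT replicates 1 and 3.

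Gzmb, granzyme B, which cuts after aspartate and activates caspases, had ratios of 0.364, 1.51 and 1.13 in WT and 2.56, 1.94 and 1.11 in STAT5b-deficient arrays. STAT5b-deficient replicate 3 fell inside the WT range, so the groups overlapped. The log2 fold change of 1.05 ± 0.56, as large as that of Cd3d, did not pass (limma adjusted p = 0.241). It was 0.44 without WT replicate 1, a fold of 1.35 in place of 2.07. With REF, at 0.715, in place of WT replicate 2 it was 1.41 ± 0.44 and passed narrowly (limma adjusted p = 0.0499).

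Itgae had ratios of 0.683, 1.32 and 0.995 in WT and 1.01, 1.13 and 0.974 in STAT5b-deficient arrays, all inside the WT range. It changed by 0.10 ± 0.24 on the log2 scale, which did not pass (limma adjusted p = 0.805), and by -0.15 without WT replicate 1. REF was at 0.693. For Cdh1, which encodes E-cadherin, the value was 0.12 ± 0.13 (limma adjusted p = 0.543), and for Itgb7, the partner chain, it was -0.58 ± 0.31 (limma adjusted p = 0.239). Both of these genes were picked from their list after their values were seen.

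**Figure D2:**
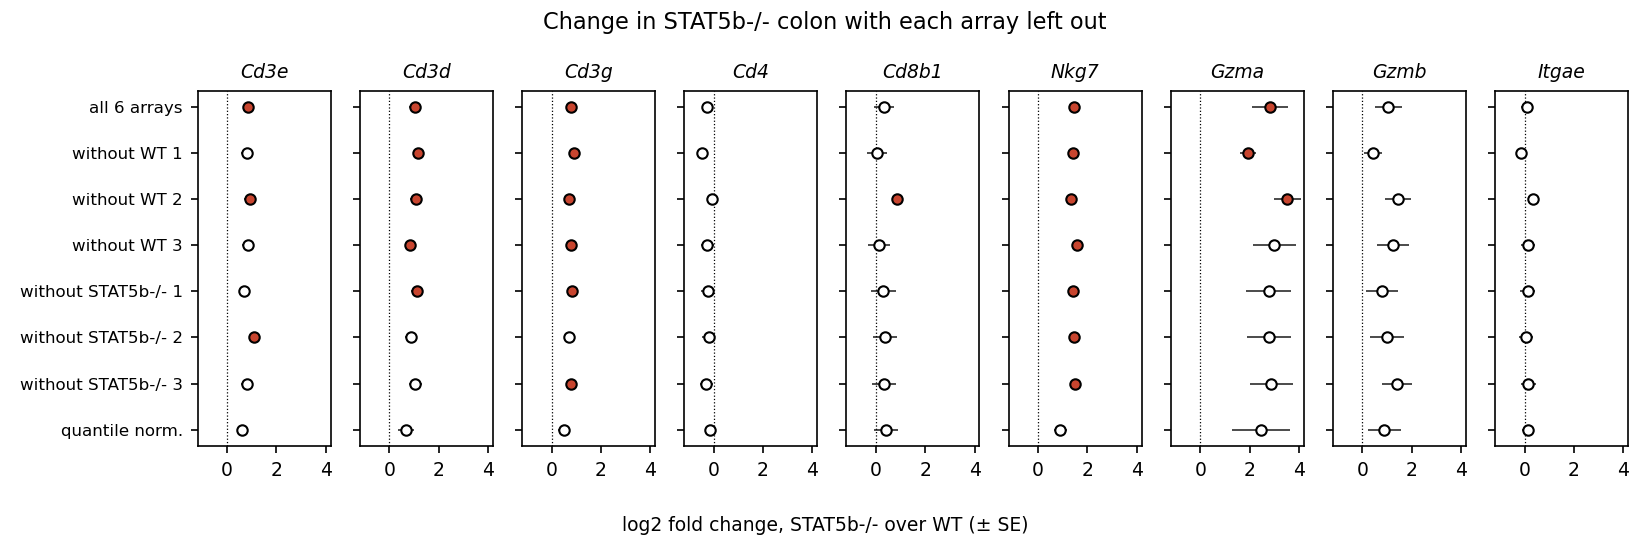
log2 fold change of STAT5b-/- over WT (± SE) for each gene, with all 6 arrays, with each array left out in turn, and after quantile normalization; red points have an adjusted p under 0.05. Nkg7 stays red whichever array is left out, Cd8b1 turns red only without WT replicate 2, and no point is red after quantile normalization.

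How many of the 9 genes passed upwards moved with the arrays. Leaving out WT replicate 1, 2 or 3 gave 4, 6 and 3 of 9, beside 10.7%, 15.3% and 9.62% of all genes. Leaving out STAT5b-deficient replicate 1, the male, 2 or 3 gave 3, 2 and 2 of 9, beside 8.22%, 7.34% and 7.79%. With REF in place of WT replicate 2 it was 7 of 9, beside 18.2%, and after quantile normalization 0 of 9, beside 1.10%.

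Wild type samples themselves differed in these genes. WT replicate 2 was the highest of the WT arrays in 6 of the 9 genes (Cd3e, Cd4, Cd8b1, Gzma, Gzmb and Itgae), where it was highest in 48.9% of all genes. The summed ratio of the 9 genes was 6.81, 11.6 and 8.56 in WT replicates 1 to 3, 6.44 in REF, and 19.2, 18.4 and 16.7 in STAT5b-deficient arrays. REF had a log2 fold change below 0 against WT in all 9 genes, beside 57.2% of all genes, with a median of -0.42 against -0.05 over all genes. It lay below all 3 WT arrays in 4 of them (Cd3e, Cd3g, Cd4 and Cd8b1), beside 28.2% of all genes. None passed the limma test of REF against WT, in which 0% of genes were called (0 of 14351, also with robust variance moderation, with 208 and 191 at an unadjusted p under 0.05). With 1 sample on a side this test called no change of any size tried in simulated data, so it does not show that REF and WT were alike. It shares its WT arrays with the other comparison.

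Within an array, the genes were set against each other to ask whether they moved by unequal amounts. In STAT5b-deficient arrays Gzma stood above Gzmb by 1.05, 1.41 and 2.03 on the log2 scale of ratios, against -0.82, 0.33 and -0.34 in WT. The groups were apart by 1.77 on average. Cd4 stood below the mean of the 3 CD3 chains by a difference of -1.18, -1.26 and -1.06 in STAT5b-deficient arrays, against -0.57, 0.37 and 0.12 in WT, a shift of -1.14 between the groups. Itgae shifted against the CD3 chains by -0.78 and Nkg7 by 0.56, and neither overlapped, though the nearest arrays of the groups differed by little. For Itgae these were -0.67 in WT replicate 1 and -0.70 in STAT5b-deficient replicate 2. For Nkg7 they were 0.42 in WT replicate 3 and 0.49 in STAT5b-deficient replicate 3. Cd8b1 shifted against Cd4 by 0.59 and against the CD3 chains by -0.56, with overlapping groups.

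For the 4 pairs of quantities that did not overlap the exact permutation test (two-sided, 3 arrays against 3) gave p = 0.10, the smallest this design allows, and 0.15 adjusted over the 6 pairs; for Cd8b1 against Cd4 and against the CD3 chains the exact p was 0.3 and 0.4. No pair could therefore pass. After quantile normalization the groups stayed apart only for Gzma against Gzmb, with a shift of 1.59. They overlapped for Cd4, Itgae and Nkg7 against the CD3 chains, with shifts of -0.73, -0.47 and 0.31 (exact permutation p = 0.3, 0.4 and 0.4). In REF the differences were -0.80 for Gzma against Gzmb and -0.11 for Cd4 against the CD3 chains, both within the range of WT. The pairs with Cd8b1 or Cd4 were chosen after the files were seen, in place of pairs that needed Cd8a.

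**Figure D3:**
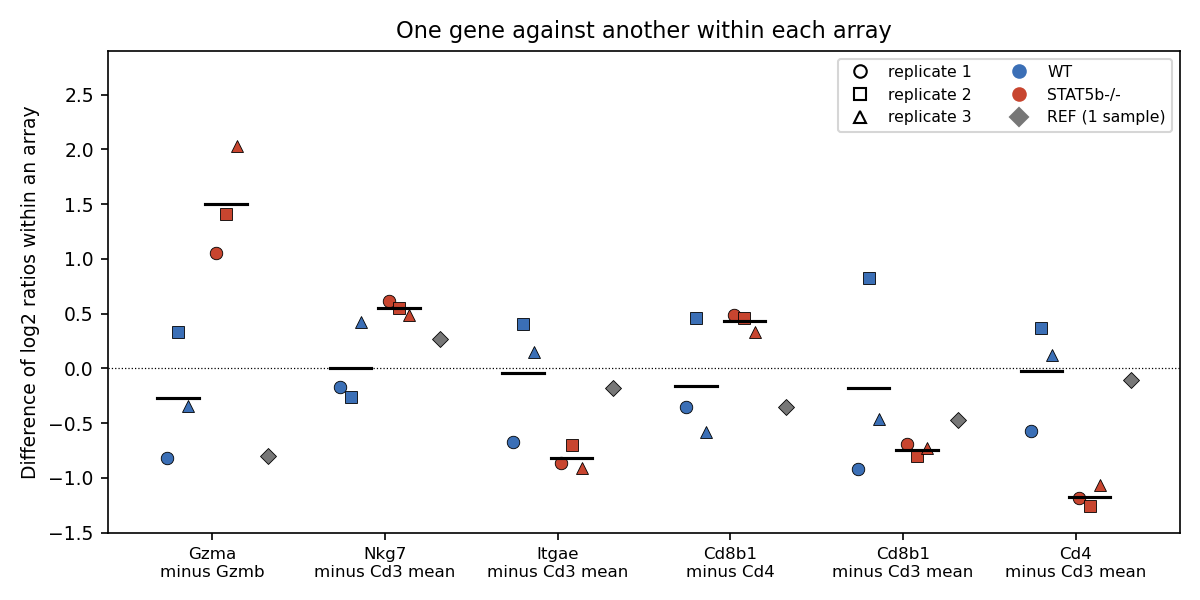
Difference of log2 ratios between genes within each array, for 6 pairs, where Cd3 mean is the mean of Cd3d, Cd3e and Cd3g; marks are arrays (blue WT, red STAT5b-/-, grey REF) and black lines are group means. Red lies above blue for Gzma minus Gzmb and below it for Cd4 minus the Cd3 mean, with shifts of 1.77 and -1.14.

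Of 29 other genes of T cell receptor signalling and T cell identity, 1 rose and 2 fell, beside 13.3% and 8.42% of all genes. Their median log2 fold change was -0.11. Without WT replicate 2 the counts were 2 and 4, without WT replicate 3 they were 1 and 4, and without STAT5b-deficient replicate 1 they were 1 and 3. Cd7, an immunoglobulin-like receptor of T and natural killer cells, rose 4.60-fold, with ratios of 4.92, 5.21 and 3.55 against 0.731 to 1.20 in WT and 1.37 in REF (log2 fold change 2.20 ± 0.24, limma adjusted p = 0.00151). Cd2, an adhesion receptor of T cells, fell by 1.24 ± 0.18 and Cd28, the costimulatory receptor, fell by 1.49 ± 0.25 on the log2 scale (limma adjusted p = 0.00459 and 0.00709). Each of these 3 calls held in all 6 fits with an array left out. After quantile normalization, which gives all arrays one distribution, Cd28 passed (limma adjusted p = 0.0393), whereas Cd7, at 1.30, and Cd2 did not (0.114 and 0.155). Prkcq, a kinase downstream of the receptor and next by p-value, was at -0.65 ± 0.20 on that scale (limma adjusted p = 0.0588). Without STAT5b-deficient replicate 1 it passed (0.0388). Of the genes closest to the CD3 chains in function, picked after their values were seen, the kinases Lck and Zap70 had 0.33 ± 0.14 and 0.30 ± 0.12 and the zeta chain Cd247 had -0.05 ± 0.14, none of which passed (limma adjusted p = 0.141, 0.123 and 0.826). The groups overlapped for Cd247. For Lck and Zap70 they did not: all 3 STAT5b-deficient arrays, at 1.19 or above, lay above the highest WT array, at 1.07 for Lck and 1.06 for Zap70. Groups were apart and higher in 25.0% of all genes.

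Among cytotoxic and natural killer genes 4 of 34 rose and 2 fell, with a median log2 fold change of -0.13. Both counts lay under the shares of all genes, 13.3% and 8.42%. The chemokine Ccl5, made by cytotoxic lymphocytes, rose 5.20-fold, with ratios of 4.65, 6.71 and 4.10 against 0.721 to 1.32 in WT. Klrd1, the CD94 chain of natural killer receptors, rose 4.27-fold, with 3.44, 5.03 and 3.97 against 0.735 to 1.42. Their log2 fold changes were 2.38 ± 0.27 and 2.09 ± 0.27 (limma adjusted p = 0.00194 and 0.00307). These 2 genes passed with each array left out and after quantile normalization (limma adjusted p = 0.0292 and 0.0483, with log2 fold changes of 1.54 and 1.43), and REF had 0.739 and 1.08.

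Ctsw, the protease cathepsin W of cytotoxic cells, rose by 1.04 ± 0.22 on the log2 scale (limma adjusted p = 0.0160; 0.0665 without STAT5b-deficient replicate 1 and 0.0679 without replicate 2). Klre1, a natural killer receptor and the other riser, rose by 1.01 ± 0.25 (limma adjusted p = 0.0306) and lost its call without WT replicate 3 or any 1 STAT5b-deficient array, with adjusted p up to 0.110. Tyrobp, the adaptor DAP12 shared by natural killer and myeloid cells, fell by 1.16 ± 0.17 (limma adjusted p = 0.00486; 0.0890 after quantile normalization). Slamf7 fell by 1.31 ± 0.31 (limma adjusted p = 0.0255), and lost its call without the same arrays, with adjusted p up to 0.0964. Klre1, Slamf7 and the next genes were named after their values were seen. Perforin (Prf1), which opens target membranes for granzymes, had a log2 fold change of -0.26 ± 0.24, interferon gamma (Ifng) of -0.34 ± 0.36 and granzyme K (Gzmk) of -0.14 ± 0.37, and none passed (limma adjusted p = 0.499, 0.556 and 0.824). WT replicate 2 was the highest WT array in 28 of these 34 genes, and the list's summed ratio was 43.9 there, 26.8 and 31.3 in the other WT arrays, 26.2 in REF and 39.5 to 41.9 in STAT5b-deficient arrays. Leaving out STAT5b-deficient replicate 1 or 2 gave 2 risen and 1 fallen, leaving out WT replicate 3 gave 3 and 1, and leaving out WT replicate 2 gave 5 and 2 and turned the list's median to 0.13. After quantile normalization 2 were higher and 0 lower, with a median of 0.04.

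Of 24 genes listed for the residence of lymphocytes in the gut lining and for their partners there, 5 rose and 3 fell. Of all genes, 13.3% rose and 8.42% fell. The median log2 fold change was 0.09 (-0.05 without WT replicate 1). Without WT replicate 3 or STAT5b-deficient replicate 1 or 2, 1 fell, and 2 fell without WT replicate 1 or STAT5b-deficient replicate 3. Il15, the cytokine that sustains intraepithelial and natural killer cells, rose 7.66-fold, with ratios of 8.48, 7.17 and 6.75 against 0.744, 0.919 and 1.34 in WT and 1.39 in REF. On the log2 scale the rise was 2.94 ± 0.23 (limma adjusted p = 0.000531). Il15ra, the receptor chain that presents the cytokine, went the other way, by -0.73 ± 0.18 (limma adjusted p = 0.0296), a call lost without WT replicate 3 or any 1 STAT5b-deficient array, with adjusted p up to 0.103.

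Btnl2, a butyrophilin-like membrane protein that can restrain T cells, rose 6.92-fold, with ratios of 6.24, 7.15 and 4.95 against 0.392, 1.27 and 1.34 in WT and 0.622 in REF (log2 fold change 2.79 ± 0.47, limma adjusted p = 0.00762). H2-T3, the thymus leukaemia antigen that binds CD8 alpha homodimers, had ratios of 15.4, 6.82 and 6.78 against 0.527, 0.438 and 2.04, and 1.33 in REF. It rose 11.5-fold (log2 fold change 3.52 ± 0.62, limma adjusted p = 0.00910), from 8.62-fold to 18.6-fold with an array left out, with the higher value without WT replicate 3; its probes may also read near-identical class I genes. Ccl25, the chemokine that draws cells bearing Ccr9, rose 2.63-fold (log2 fold change SE 0.18, limma adjusted p = 0.00316), whereas Ccr9 was at -0.09 ± 0.26 on the log2 scale (limma adjusted p = 0.837). Hnf4a, a transcription factor of gut epithelium, rose by 0.70 ± 0.12 (limma adjusted p = 0.00801). Itga4, the integrin alpha 4 chain, fell by 0.95 ± 0.17 and Ahr, the aryl hydrocarbon receptor, fell by 0.47 ± 0.11 (limma adjusted p = 0.00965 and 0.0255). Il15, Btnl2, H2-T3, Ccl25, Hnf4a and Itga4 passed with each array left out, whereas Ahr passed in 1, without WT replicate 2, with adjusted p up to 0.104 in the others. After quantile normalization 0 of the 24 genes passed in either direction: adjusted p was 0.0810 for Il15, 0.253 for Btnl2, 0.428 for H2-T3, 0.0741 for Ccl25, 0.128 for Hnf4a and 0.112 for Itga4. There the log2 fold change was 1.65 for Il15, 1.75 for Btnl2 and 2.16 for H2-T3. H2-T3, Il15ra, Itga4, Ccr9 and Ahr were named after their values were seen.

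**Figure D4:**
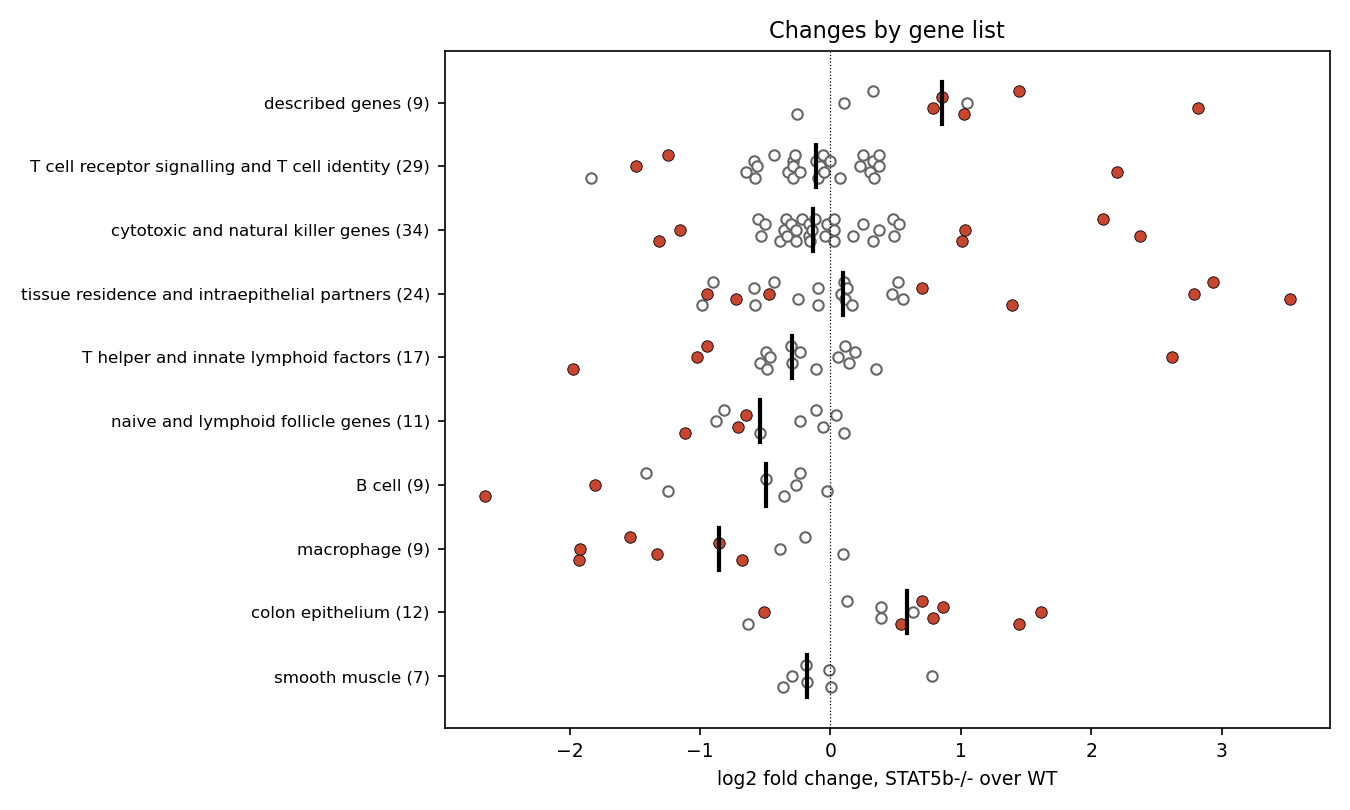
log2 fold change of STAT5b-/- over WT for every measured gene of each list, with the number measured in brackets; red points have an adjusted p under 0.05 and black bars are list medians. The described genes have a median of 0.85 with 5 of 9 red. The T cell and cytotoxic lists centre near 0, with a few genes far out on both sides.

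T helper and innate lymphoid factors had 1 of 17 higher and 3 lower, beside 13.3% and 8.42% of all genes. Their median log2 fold change was -0.29, and 0 were higher and 1 lower without STAT5b-deficient replicate 1 or 2. After quantile normalization 0 of the 17 passed in either direction, with Il10 at -1.57 (limma adjusted p = 0.137). Il10 fell by 1.98 ± 0.24 and Il13, a type 2 cytokine, fell by 0.95 ± 0.18 (limma adjusted p = 0.00228 and 0.0127). REF had ratios of 0.293 for Il10, against 0.232 to 0.266 in STAT5b-deficient arrays, and 0.631 for Il13, so a wild type sample lay nearly as low in Il10. With REF in place of WT replicate 2 the call of Il10 was lost (0.0540). Il13 did not pass without STAT5b-deficient replicate 1 (0.0537) or 2 (0.0563). Il4 fell by 1.03 ± 0.26 (limma adjusted p = 0.0341), a call lost without WT replicate 1 or any 1 STAT5b-deficient array (adjusted p up to 0.120) and with REF added to the wild type group (0.0980). Its ratio in REF, 0.529, lay inside the range of the STAT5b-deficient arrays, 0.398 to 0.572. Areg, an epidermal growth factor receptor ligand that is also made by epithelium, rose by 2.62 ± 0.72 (limma adjusted p = 0.0424), lost without WT replicate 3 or any 1 STAT5b-deficient array (up to 0.127); with an array left out the log2 rise ran from 1.89, without WT replicate 2, to 3.46, without WT replicate 1.

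Genes of naive lymphocytes and lymphoid follicles had 0 of 11 higher and 3 lower, beside 13.3% and 8.42% of all genes, with a median of -0.54. The homing receptor Ccr7 fell by 0.71 ± 0.17, and S1pr1, needed to leave lymphoid tissue, fell by 0.65 ± 0.17 (limma adjusted p = 0.0284 and 0.0401). Ccr7 passed in 2 of the 6 fits with an array left out, those without WT replicate 2 or STAT5b-deficient replicate 3, and S1pr1 in 1, that without STAT5b-deficient replicate 1, with adjusted p up to 0.101 and 0.133 in the others. After quantile normalization 0 of the 11 passed. Without WT replicate 1 or STAT5b-deficient replicate 2, 0 genes of this list passed, without STAT5b-deficient replicate 1 or 3 it was 1, and without WT replicate 2 it was 2. The follicle chemokine Cxcl13 had -0.81 ± 0.25 (limma adjusted p = 0.0595) and passed without WT replicate 3 (0.0191).

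Of the markers of other cells of the colon, many of epithelium and of macrophages also differed between the groups. Fewer B cell markers and no smooth muscle marker were called. Beside these lists, 13.3% of all genes were higher and 8.42% lower. Among colon epithelium markers 6 of 12 were higher and 1 lower, with a median of 0.59, and their summed ratio was 11.2 to 12.6 in WT, 12.1 in REF and 18.1 to 19.8 in STAT5b-deficient arrays; Aqp8 rose by 1.45 ± 0.15, Car1 by 1.62 ± 0.24, Slc26a3 by 0.86 ± 0.16 and Krt20 by 0.71 ± 0.14 (limma adjusted p = 0.00135, 0.00469, 0.0110 and 0.0151). The call of Slc26a3 was lost without STAT5b-deficient replicate 2 (0.0506) and that of Krt20 without replicate 2 (0.0675) or 3 (0.0672). The lower marker was Krt18, at -0.51 ± 0.14 (limma adjusted p = 0.0446), which passed in 0 of 6 fits with an array left out. Car4, at -0.63 ± 0.25, was also down but did not pass (limma adjusted p = 0.123). Among the fits with an array left out it passed only without WT replicate 3. Krt18 and Car4 were named after their values were seen. Counts of higher epithelium markers were 2 and 3 without STAT5b-deficient replicates 2 and 3, and 5 or more otherwise. After quantile normalization 0 of the 12 passed in either direction, with a median of 0.44 and adjusted p of 0.158 for Aqp8 and 0.0611 for Car1.

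Among macrophage markers 6 of 9 were lower and 0 higher (4 lower in every fit with an array left out except that without STAT5b-deficient replicate 3, and 2 lower after quantile normalization, where Mrc1 and Adgre1 passed and Lyz2 and Cd14 did not), with a median of -0.85 and summed ratios of 8.26 to 10.5 in WT, 9.41 in REF and 4.47 to 6.08 in STAT5b-deficient arrays; Mrc1 and Adgre1 fell by 1.92 ± 0.19 and 1.93 ± 0.29, and Lyz2 and Cd14 by 1.33 ± 0.19 and 1.54 ± 0.23 (limma adjusted p at most 0.00525). Among B cell markers 2 of 9 were lower and 0 higher, with a median of -0.50 and summed ratios of 6.38 to 11.5 in WT, 7.30 in REF and 4.83 to 5.39 in STAT5b-deficient arrays; Mzb1 fell by 2.65 ± 0.27 and Cd79b by 1.81 ± 0.41 (limma adjusted p = 0.00126 and 0.0230), the latter not without STAT5b-deficient replicate 1 (0.0838) or 2 (0.0763). Cd74 was at -0.50 ± 0.21 (limma adjusted p = 0.141). Without WT replicate 3 the count of lower B cell markers was 3, and without STAT5b-deficient replicate 1 or 2, or after quantile normalization, it was 1. Smooth muscle markers had 0 of 7 called, with a median of -0.18 and summed ratios of 5.96 to 8.20 in WT, 6.20 in REF and 5.93 to 8.84 in STAT5b-deficient arrays; Smtn, Cnn1, Actg2 and Tagln had 0.78 ± 0.37, -0.36 ± 0.22, -0.29 ± 0.20 and -0.19 ± 0.16 (limma adjusted p = 0.191, 0.306, 0.358 and 0.451). Since values are ratios, no marker's level could be read as present or absent. The part of these cell types, and of the male sex of 1 array, in the rise of the CD3 chains, Nkg7 and Gzma was not tested.

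The genes whose pattern over the 7 samples was most like that of Cd3e, Nkg7 and Itgae were picked by Pearson's r of log2 ratios among named genes, as a description. For Cd3e they were Atp8b1, Fuca2 and Btg2 (r = 0.996, 0.993 and 0.991), which shared its dip in STAT5b-deficient replicate 2 and had log2 fold changes of 0.21, 0.66 and 0.49. For Nkg7 they were Hoxd9, Adra2a and Spryd7 (r = 0.998, 0.998 and 0.997), which rose more steeply, by 3.12, 2.91 and 1.70, and like Nkg7 did not pass after quantile normalization (limma adjusted p = 0.105, 0.184 and 0.184). For Itgae they were Hpca, Lalba and Mtmr14 (r = 0.991, 0.985 and 0.981), with 0.04, 0.14 and 0.09. Among the 9 genes themselves, Nkg7 had r = 0.895 with Cd3g and -0.319 with Cd4, and Cd8b1 had r = 0.880 with Itgae. All these samples share the WT denominator, and the difference between groups weighs on the r of Cd3e and Nkg7. Itgae, Cd8b1 and the genes most like Itgae did not pass between the groups. In each of them WT replicate 2 was the highest of the 7 samples, which weighs on their r.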

How the data were processed

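Colon RNA, 100 ng per sample, was hybridised to Affymetrix arrays, per the labels' protocols; 8 columns were deposited, which hold 7 distinct samples. The authors' deposited values are linear ratios, in which WT averages 1 within each probe set (largest deviation 1.87e-07) and nothing lies under 0.01, treated as a floor. The submitters' processing notes name RMA and no version, and the sources used here do not name the array. With no intensities or detection calls, dim probe sets were kept, and the number of arrays limits the precision.

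Accessions of probe sets, stripped of versions, were looked up in RefSeq's gene table for GRCm38.p6: of 26180 probe sets, 15228 matched 1 symbol, 0 several and 10952 none, giving 14351 genes. Probe sets of a gene were averaged as log2 ratios, without a pseudocount. Differences between groups came from limma 3.58.1 (lmFit, eBayes; R 4.3.3), adjusted by Benjamini-Hochberg across the 14351 genes, with calls at adjusted p under 0.05; folds come from mean log2 ratios. Differences within arrays were tested by exact permutation.

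The genes, the 9 other lists and the tests were chosen with earlier results of these data known. Named genes were the members, Stat5b, up to 4 genes of each list with the smallest p, and the 3 genes most like each of Cd3e, Nkg7 and Itgae; others are marked in the text. Some genes that this rule picked are not reported here. The limma step was tested on simulated data. For STAT5b-/- against WT it recovered 1.52%, 35.3% and 77.3% of log2 changes of 0.5, 1 and 2, with 0 false calls. A gene that did not pass was therefore not shown to be unchanged. Alternatives covered normalization, centring, gene summary, variance moderation, floor genes, the samples in the fit, a replicate block and each array left out.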

Additional observations from a re-analysis of the deposited data

How the results depend on the processing

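Quantile normalization left 397 called genes in place of 3119, 158 higher and 239 lower against 1910 and 1209, and 0 of the 9 lymphocyte genes in place of 5, with adjusted p of 0.143 for Cd3e to 0.393 for Cd3g among the 5. The log2 fold changes of all 9 kept their sign there, with Nkg7 at 0.90 and Gzma at 2.48. By construction this step gives all arrays one distribution, while WT ratios are narrower than those of the other arrays. WT arrays are divided by their own mean, which in itself narrows their ratios. Forcing one distribution then widens WT and narrows the STAT5b-deficient arrays. How much of the loss of calls came from this was not tested. Fitting each of 26180 probe sets on its own called 5099. Whether replicate numbers pair the samples is not stated in the labels. Deviations from the group means correlated at 0.0355, -0.0984 and -0.186 between same-numbered arrays. Between differently numbered arrays they correlated at -0.137 to 0.216. With 3 arrays per group these values cannot decide whether the samples were paired. With the replicate block 2039 genes and 3 of the 9 were called. Leaving out each array gave 1716 to 3551 called genes and 2 to 6 of the 9. REF in place of WT replicate 2, chosen after seeing the data, gave 7 of 9. The counts of REF against WT are not given here, since that test called none in simulated data either. The values that changed sign, for which the cause was not tested, were Cd4 at 0.020 with REF in place of WT replicate 2 and, over the fits with an array left out, Itgae from -0.15 to 0.33, Hpca from -0.046 to 0.13, Lalba from -0.033 to 0.30 and Mtmr14 from -0.0090 to 0.18. For REF over WT, Nkg7 ran from -0.18 to 0.082 and Gzmb from -0.87 to 0.16.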
